A study of Mus musculus with 6 samples.

Results

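NRF2, encoded by Nfe2l2, is the transcription factor that switches on the antioxidant response of a cell. In resting cells its partner KEAP1 holds it in the cytoplasm and hands it to a ubiquitin ligase for degradation. Oxidants and electrophiles modify cysteines of KEAP1, and NRF2 then accumulates, enters the nucleus and binds the antioxidant response element of genes for glutathione synthesis, the thioredoxin system, quinone reduction and haem breakdown. In the artery wall this programme is known for limiting oxidative stress in endothelium, smooth muscle and macrophages. The 10 genes described here were chosen by symbol from the 55341 genes of the deposited read-count table: the pair Nfe2l2 and Keap1, and 8 well known NRF2 target genes, namely Gclc, Gclm, Slc7a11, Gsr, Txnrd1, Srxn1, Nqo1 and Hmox1. Only RNA was measured, neither protein nor NRF2 binding.

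The libraries came from the aortic arch and thoracic aorta of mice at 8 weeks of age on normal laboratory diet, 3 lacking miRNA-26b (miRNA-26b-/-, labelled KO miRNA26B) and 3 controls with the gene (miRNA-26b+/+, labelled naive). All 6 carry the strain label C57BL/6NCrl, while the deleted allele was made in 129/Sv embryonic stem cells and the line was then bred to C57BL/6. The miRNA-26b-/- mice descend from animals with a floxed allele that was deleted by tamoxifen-activated CreERT2, which was bred out afterwards, and the promoter of CreERT2 is not given in the sources used here. Libraries are numbered within each genotype, and the numbers pair no animals across genotypes. The labels call the samples endothelial cells of the aorta, but smooth muscle markers summed to 32990 to 44290 CPM (read counts scaled to library size, normalised by the trimmed mean of M-values, TMM) and endothelial markers to 520 to 1774 CPM, so the values are read here as those of the whole vessel wall. In such bulk samples fewer cells of a type and less RNA per cell cannot be told apart.

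Depth was 25706728 to 33345037 counted reads per library. The targeted RNA could not check the labels, since Mir26b had 0 reads in the 3 miRNA-26b-/- libraries and in 2 of the 3 controls, and 20 reads in control 2. Its host gene Ctdsp1 was at 201.5, 182.5 and 182 CPM in miRNA-26b-/- mice, against 148.5, 166 and 179.5 CPM in controls, a difference that did not pass the test (edgeR quasi-likelihood, adjusted p = 0.866). Library miRNA-26b-/- 2 stood apart, with sympathetic neuron markers at 491 CPM in sum against 74.8 to 159 CPM in the other libraries, all 9 of them highest there. Its adipocyte markers summed to 2930 CPM and its cardiac muscle markers to 376 CPM. Control 2 was the library with the next highest sums of these 3 lists, at 159, 2003 and 322 CPM. Skeletal muscle markers were also highest in miRNA-26b-/- 2, at 94.95 CPM in sum. For them miRNA-26b-/- 1 came next, at 35.76 CPM, ahead of control 2 at 13.23 CPM.

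The deleted RNA acts through its seed, bases 2 to 8 of each mature strand, and the seed is shown because it bears on which of the NRF2 genes could pair with it. Mature sequences are those of RefSeq (GRCm38.p6), with the seed in capitals. The miR-26b-5p sequence lies at chr1:74394324-74394344 on the plus strand. miR-26a-5p, made from other loci, has the same seed.
miR-26b-5p: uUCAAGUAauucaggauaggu
miR-26a-5p: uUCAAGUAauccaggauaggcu
miR-26b-3p: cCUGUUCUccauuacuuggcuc

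A match to the 5p seed, TACTTGA, was found in the longest annotated 3′ UTR of 3 of the 10 genes, against 11.7% of the 13541 tested genes with an annotated 3′ UTR. The 3 are Gclm, Slc7a11 and Txnrd1, and in each the match is followed by an A. Each is shown 5′ to 3′ with the match in capitals, and a match is a description of letters and not evidence of pairing.
Gclm, chr3:122269156-122269182, plus strand: aaatttgaacTACTTGAatttaaacag
Slc7a11, chr3:50365019-50365045, minus strand: tgtatattttTACTTGAaaatacttca
Txnrd1, chr10:82896714-82896740, plus strand: ttggctaatcTACTTGAactgcatcgc
The 3′ UTRs of these genes are 4335, 7364 and 1667 bases long, all above the median of 1378 bases over the tested genes. Nfe2l2 and Keap1, with 3′ UTRs of 448 and 972 bases, hold no match to the 5p seed in these windows. Matches to the seed of miR-26b-3p were not counted here, so a gene without a 5p match may still hold one.

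The other sequence that bears on the group is the antioxidant response element. Its core was searched as TGACNNNGC on both strands in RefSeq promoters running from 250 bases before to 50 bases after each transcription start, and its TGAC is also the beginning of the AP-1 motif TGACTCA. Of the 10 genes, 7 had a promoter in the table and 4 of these held the core, namely Nfe2l2, Srxn1, Gclm and Txnrd1, against 12.4% of all 32851 promoter windows and 16.8% of the 11190 tested genes with a promoter. Promoters of Hmox1, Gclc and Gsr were not analysed here. Part of each window is shown in the direction of transcription with the core in capitals. In Srxn1, Gclm and Txnrd1 the core lies on the opposite strand, so that its reverse complement is read.
Nfe2l2, chr2:75704875-75704913, minus strand: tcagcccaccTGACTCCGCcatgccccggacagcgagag
Srxn1, chr2:152105532-152105573, plus strand: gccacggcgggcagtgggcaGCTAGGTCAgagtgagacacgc
Gclm, chr3:122245403-122245451, plus strand: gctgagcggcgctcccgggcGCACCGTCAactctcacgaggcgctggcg
Txnrd1, chr10:82859094-82859142, plus strand: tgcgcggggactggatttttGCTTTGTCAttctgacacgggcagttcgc
The Txnrd1 match stands in 1 of its 3 promoter windows. No match in such a window says only that these letters are not in it, as for Keap1, Nqo1 and Slc7a11.

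All NRF2 genes except Slc7a11 were read in every mouse at moderate levels. Per kilobase of exon, over the 6 libraries, Nfe2l2 was highest at 23.8 ± 3.17 RPKM (SD, n = 6), ahead of Srxn1 at 16.5 ± 1.88, Nqo1 at 15.2 ± 3.18 and Keap1 at 14.2 ± 1.62 RPKM. Gsr at 11.9 ± 2.63, Txnrd1 at 9.54 ± 1.35 and Gclc at 9.07 ± 1.69 RPKM followed, and Gclm at 6.41 ± 1.22 and Hmox1 at 6.36 ± 1.74 RPKM were lowest among the 9. The SD ranges of neighbours in this order of 9 overlap, except between Nfe2l2 and Srxn1. The cystine transporter gene Slc7a11 was far below all of them at 0.0158 ± 0.036 RPKM.

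None of the 9 genes that could be tested passed the test between genotypes. Of all 16017 genes tested, 6.47% had an unadjusted p under 0.05 (3.4% with the higher mean in miRNA-26b-/- and 3.07% in control mice) and 0.00624% an adjusted one (edgeR quasi-likelihood test with Benjamini-Hochberg adjustment), and among the NRF2 genes both counts were 0, also with the 15 other ways of running the test. Fitted log2 fold changes (miRNA-26b-/- over miRNA-26b+/+) were positive for 6 genes and negative for 3, from -0.37 to 0.29, with standard errors of 0.17 to 0.39. Their median was 0.19 beside 0.01 over all genes tested. Unadjusted p-values were 0.133 to 0.824 and adjusted ones 0.837 to 0.991. With 3 mice per group the intervals stay wide, so these values do not show that the genotypes are alike.

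**Figure D1:**
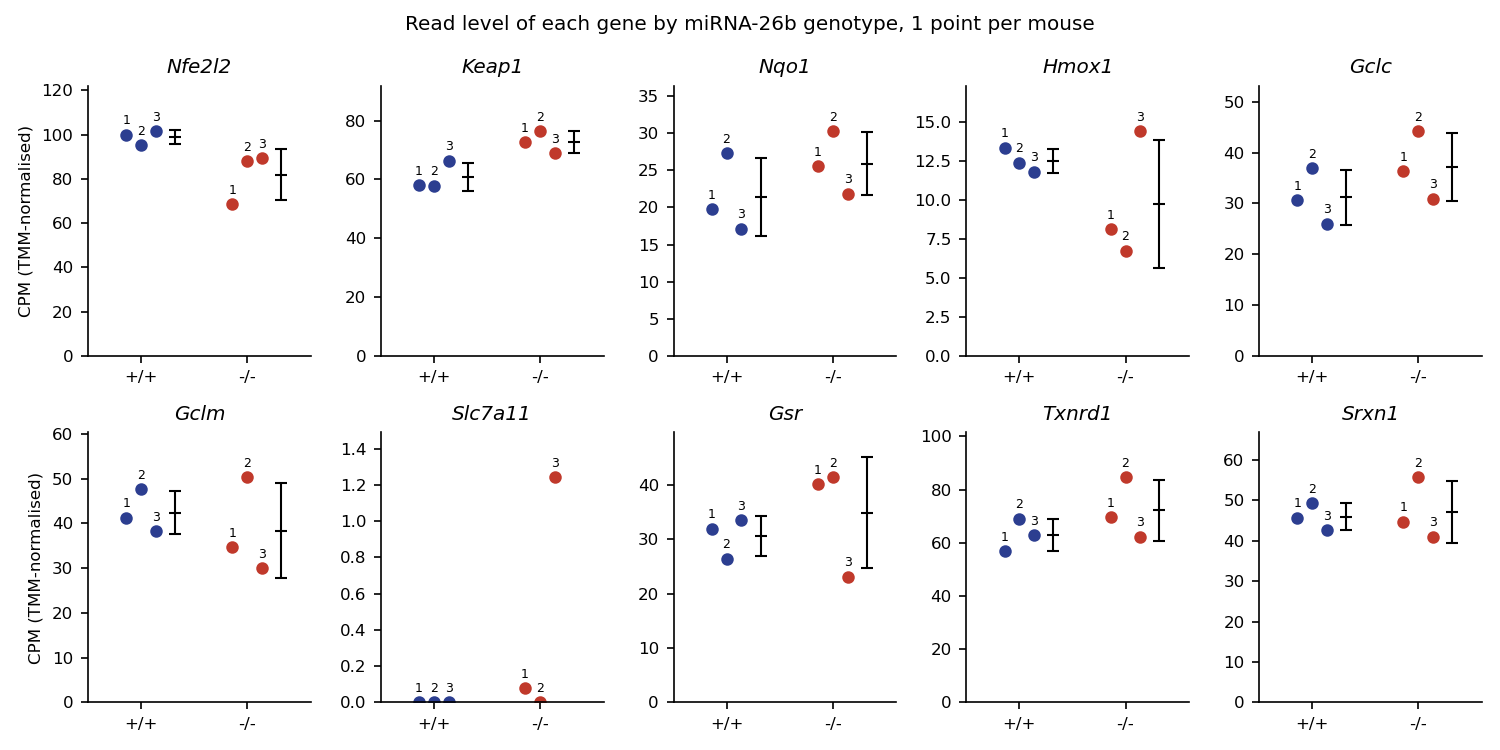
Level of each NRF2 gene as TMM-normalised CPM (vertical axes, each from 0) in the 3 miRNA-26b+/+ (blue) and 3 miRNA-26b-/- (red) mice, 1 numbered point per mouse, with the mean and SD beside them except for Slc7a11. The genotypes do not overlap for Nfe2l2 and Keap1, and overlap for the 7 targets that were tested.

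Nfe2l2, the factor itself, was lower in each miRNA-26b-/- mouse than in any control. The gene (ENSMUSG00000015839, chr2:75675513-75704641, minus strand, GRCm38) was read at 68.5, 87.9 and 89.4 CPM in miRNA-26b-/- mice and at 99.9, 95.2 and 102 CPM in miRNA-26b+/+ mice. The groups do not overlap, but the controls lay close together and miRNA-26b-/- 1 was well below the other 2 of its group. Means were 81.9 ± 11.7 and 98.9 ± 3.30 CPM (SD, n = 3 each), and the log2 fold change was -0.27 (SE 0.17, 95% interval -0.63 to 0.09, adjusted p = 0.837). Without miRNA-26b-/- 1 the log2 fold change was -0.16.

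Keap1, whose protein restrains NRF2, had the opposite order. It was at 72.6, 76.5 and 68.9 CPM in miRNA-26b-/- mice and at 58.1, 57.8 and 66.3 CPM in miRNA-26b+/+ mice, so the lowest of the first group stood just above the highest of the second. Means were 72.7 ± 3.77 and 60.8 ± 4.81 CPM, and the log2 fold change was 0.26 (SE 0.17, 95% interval -0.11 to 0.63, adjusted p = 0.853). Keap1 (ENSMUSG00000003308, chr9:21229730-21239361, minus strand) shares 510 bases, or 10.9% of its exon length, with the antisense gene Gm16754, and reads over both were counted for each without strand. After taking away every read counted for Gm16754, Keap1 was at 60.2, 56.9 and 53.8 CPM against 42.7, 44.5 and 50.2 CPM, which still do not overlap.

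Genes whose groups do not overlap made up 11.5% of all genes tested, 5.65% higher and 5.88% lower in miRNA-26b-/- mice. For 1 gene the exact two-sided permutation test of 3 against 3 mice gives p = 0.1 at the least, which is its value for both Nfe2l2 and Keap1. The ratio of Nfe2l2 to Keap1 in RPKM, which was chosen after the values were seen and is given without a test, was 1.17, 1.42 and 1.604 in miRNA-26b-/- mice and 2.13, 2.04 and 1.89 in miRNA-26b+/+ mice. In every mouse the transcript of the factor was more abundant per length than that of its inhibitor.

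Markers of other cells separated the genotypes too. Schwann cell markers summed to 486, 475 and 322 CPM in miRNA-26b-/- mice, above the 227, 241 and 293 CPM of controls, and 6 of the 7 tested (of 8) had an unadjusted p under 0.05, higher in miRNA-26b-/- mice and none after adjustment. The 6 neutrophil and monocyte markers summed to 2.74, 3.07 and 3.09 CPM, below the 5.81, 14.9 and 19.1 CPM of controls. No marker of either list was at 0 in all libraries, and Ly6g, a neutrophil marker, was at 0 in all but control 3. The part of these cells in the Nfe2l2 and Keap1 values was not tested.

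**Figure D2:**
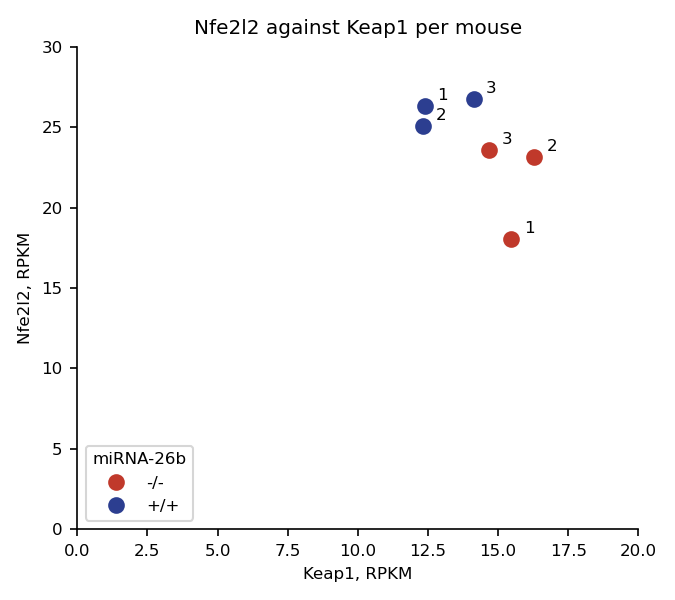
Nfe2l2 (vertical axis, RPKM) against Keap1 (horizontal axis, RPKM), 1 numbered point per mouse, miRNA-26b-/- in red and miRNA-26b+/+ in blue. The miRNA-26b-/- mice lie lower on Nfe2l2 and further right on Keap1, from 18.0 to 23.6 RPKM for Nfe2l2 against 25.1 to 26.8 in controls.

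Glutathione synthesis and recycling is the first arm of the response. Gclc encodes the catalytic and Gclm the modifier subunit of glutamate-cysteine ligase, the rate-limiting enzyme. Gclc (ENSMUSG00000032350, chr9:77754535-77794485) was at 36.3, 44.2 and 30.9 CPM in miRNA-26b-/- and at 30.7, 36.9 and 26.0 CPM in miRNA-26b+/+ mice, with a log2 fold change of 0.27 (SE 0.24, adjusted p = 0.905). That value was 0.11 without miRNA-26b-/- 2, 0.14 without control 3 and 0.405 without control 2. Gclm (ENSMUSG00000028124, chr3:122245557-122270732), which holds both a seed match and an antioxidant response core, was at 34.7, 50.2 and 30.03 CPM against 41.3, 47.7 and 38.2 CPM, with a log2 fold change of -0.13 (SE 0.23, adjusted p = 0.966). Both subunits were highest in miRNA-26b-/- 2 and, within the controls, in mouse 2, and the groups overlapped for both. Gsr, the reductase that turns oxidised glutathione back (ENSMUSG00000031584, chr8:33652523-33698163), was at 40.1, 41.4 and 23.1 CPM against 31.9, 26.4 and 33.5 CPM. The miRNA-26b-/- values of Gsr spanned the controls, with 2 above and 1 below them, and its log2 fold change was 0.19 (SE 0.26, adjusted p = 0.946).

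Slc7a11, the cystine carrier of the xCT transporter that feeds this arm (ENSMUSG00000027737, chr3:49892526-50443614), was nearly unread. It had 2, 0 and 35 reads in miRNA-26b-/- and 0 reads in every miRNA-26b+/+ library, and 3 reads correspond to 0.09 to 0.117 CPM at this depth. Only miRNA-26b-/- 3 was above that limit, at 1.24 CPM, and the gene did not pass the filter on low counts. Such limits take in the error of counting alone, since copies of a molecule made by PCR were not marked.

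In the thioredoxin arm, Txnrd1 encodes the cytosolic thioredoxin reductase and Srxn1 the sulfiredoxin that repairs over-oxidised peroxiredoxins. Txnrd1 (ENSMUSG00000020250, chr10:82833951-82897712) was at 69.7, 84.6 and 62.2 CPM in miRNA-26b-/- and at 56.9, 69.1 and 62.9 CPM in miRNA-26b+/+ mice, with a log2 fold change of 0.20 (SE 0.19, adjusted p = 0.909), which was 0.07 without miRNA-26b-/- 2 and 0.13 without control 1. Srxn1 (ENSMUSG00000032802, chr2:152105516-152111376) was at 44.7, 55.6 and 41.0 CPM against 45.7, 49.3 and 42.7 CPM, with a log2 fold change of 0.05 (SE 0.20, adjusted p = 0.991). Mouse 2 was again highest within each genotype for both genes, and the groups overlapped.

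Nqo1, the quinone reductase often used as the marker of NRF2 activity (ENSMUSG00000003849, chr8:107388225-107403206), was at 25.6, 30.3 and 21.8 CPM in miRNA-26b-/- and at 19.8, 27.3 and 17.1 CPM in miRNA-26b+/+ mice. Its log2 fold change was 0.29 (SE 0.27, 95% interval -0.29 to 0.88, adjusted p = 0.914). It was 0.15 without miRNA-26b-/- 2 or without control 3, and was 0.50 without control 2. Controls alone ranged 1.59-fold, which exceeds the 1.23-fold fitted difference of the groups.

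Hmox1, which opens the haem ring and yields biliverdin, iron and carbon monoxide (ENSMUSG00000005413, chr8:75093621-75100589), behaved unlike the other targets. It was at 8.13, 6.74 and 14.4 CPM in miRNA-26b-/- and at 13.4, 12.4 and 11.8 CPM in miRNA-26b+/+ mice, so miRNA-26b-/- 1 and 2 lay below all controls and miRNA-26b-/- 3 above them. The log2 fold change was -0.37 (SE 0.39, 95% interval -1.199 to 0.45, adjusted p = 0.930), and it depended on single libraries. It was -0.77 without miRNA-26b-/- 3 (adjusted p = 0.547 in edgeR), -0.14 without miRNA-26b-/- 2 (adjusted p = 0.989 in edgeR) and -0.14 without miRNA-26b-/- 2 and control 2 together. Macrophages, which take up red cells, are rich in this enzyme, and the 10 macrophage markers summed to 352, 418 and 1027 CPM in miRNA-26b-/- mice, against 600, 681 and 692 CPM in controls. By sum, the first 2 miRNA-26b-/- libraries were again the lowest of the 6 and the other one the highest. Within controls Hmox1 had the reverse order of the macrophage sums, highest in mouse 1 and lowest in mouse 3. Single macrophage markers did not all follow the sums. Fcgr1 was highest in control 2, at 6.52 CPM. Cd68 was at 8.87 CPM in miRNA-26b-/- 1, above its 8.42 CPM in control 1 and 4.83 CPM in control 3. No macrophage marker was at 0 in all libraries, and Fcgr1 was at 0 in miRNA-26b-/- 2. Within miRNA-26b-/- mice the summed endothelial markers had the order of the macrophage sums, at 520, 525 and 1774 CPM. Fibroblast markers had it too in sum, at 8450, 9402 and 14760 CPM, but Mfap5 was highest of that group in miRNA-26b-/- 2, at 284.6 CPM. Single endothelial markers did not all follow that order either. Within that group Kdr was lowest in miRNA-26b-/- 3, at 8.83 CPM, and Egfl7 was highest in miRNA-26b-/- 1, at 38.4 CPM. The part of these cells in the Hmox1 values was not tested.

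**Figure D3:**
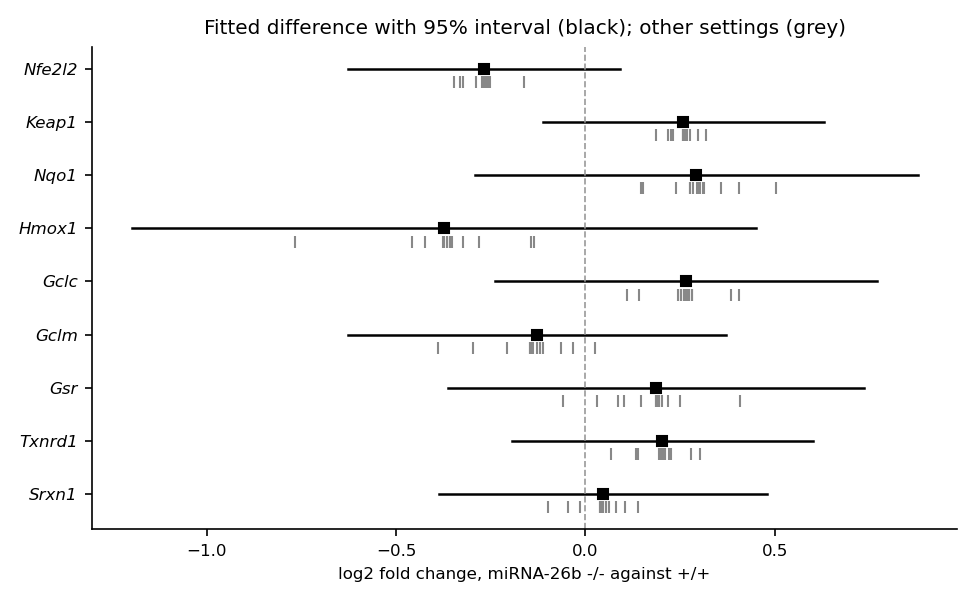
Fitted log2 fold change of miRNA-26b-/- over miRNA-26b+/+ for the 9 tested genes (black squares) with its 95% interval (black lines), and the values of the 15 other settings (grey ticks). Every interval crosses 0, and the ticks of Gclm, Gsr and Srxn1 lie on both sides of it.

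For most of the 7 tested targets the same libraries were highest or lowest within a genotype. The libraries counted here were picked after the values were seen, so the shares are a description and not a test. The library miRNA-26b-/- 2 held the highest of the 6 values for 6 targets, all but Hmox1, or 85.7%, where 17.0% of all genes tested were highest. Within the miRNA-26b-/- mice the third library was lowest for 6 of 7 targets (36.7% of all genes tested), and control 2 was highest of its group for 5 of 7 (32.2% of all genes tested). The highest miRNA-26b-/- value was 1.36 to 2.14 times the lowest across the targets, against 1.13 to 1.59 times in miRNA-26b+/+ mice. The range was wider in miRNA-26b-/- mice for 6 of the targets. How often it is wider there over all genes tested was not computed, so a wider spread of that group in general cannot be told apart. For 8 of the 9 tested NRF2 genes, all but Keap1, the range among miRNA-26b-/- mice exceeded the difference between the groups. The share of all genes tested for which this holds was not computed either. The count therefore cannot be read as a trait of the NRF2 genes.

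Summed fat markers, like 6 of the 7 tested targets, were highest in miRNA-26b-/- 2, while Hmox1 was lowest there. The 8 adipocyte markers, 7 of them highest in miRNA-26b-/- 2, summed to 1385, 2930 and 983 CPM in miRNA-26b-/- mice, against 1375, 2003 and 727 CPM in controls, and none was at 0 in all libraries. The 7 brown adipocyte markers, only 4 of them highest in miRNA-26b-/- 2, summed to 221, 502 and 242 CPM against 292, 427 and 157 CPM. Their lowest miRNA-26b-/- library by sum was 1 and not 3. Within controls Gsr had the reverse order of the adipocyte sums, lowest in mouse 2 and highest in mouse 3. Adipoq, the adipocyte hormone adiponectin, was at 180 CPM in miRNA-26b-/- 2 and at 55.5 to 149 CPM elsewhere. Dbh, the enzyme that makes noradrenaline, was at 86.2 CPM in miRNA-26b-/- 2, at 15.1 CPM in control 2 and at 0 in the other 4 libraries. The order was not particular to fat. Summed sympathetic neuron, cardiac muscle and skeletal muscle markers were also highest in miRNA-26b-/- 2, and highest of the controls in mouse 2. Within the miRNA-26b-/- mice these sums were lowest in library 3, at 74.8, 19.2 and 8.51 CPM. The part of fat, nerve, cardiac muscle and skeletal muscle in the target values was not tested. With miRNA-26b-/- 2 and control 2 both left out, which was chosen after the values were seen, no NRF2 gene passed the test either.

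**Figure D4:**
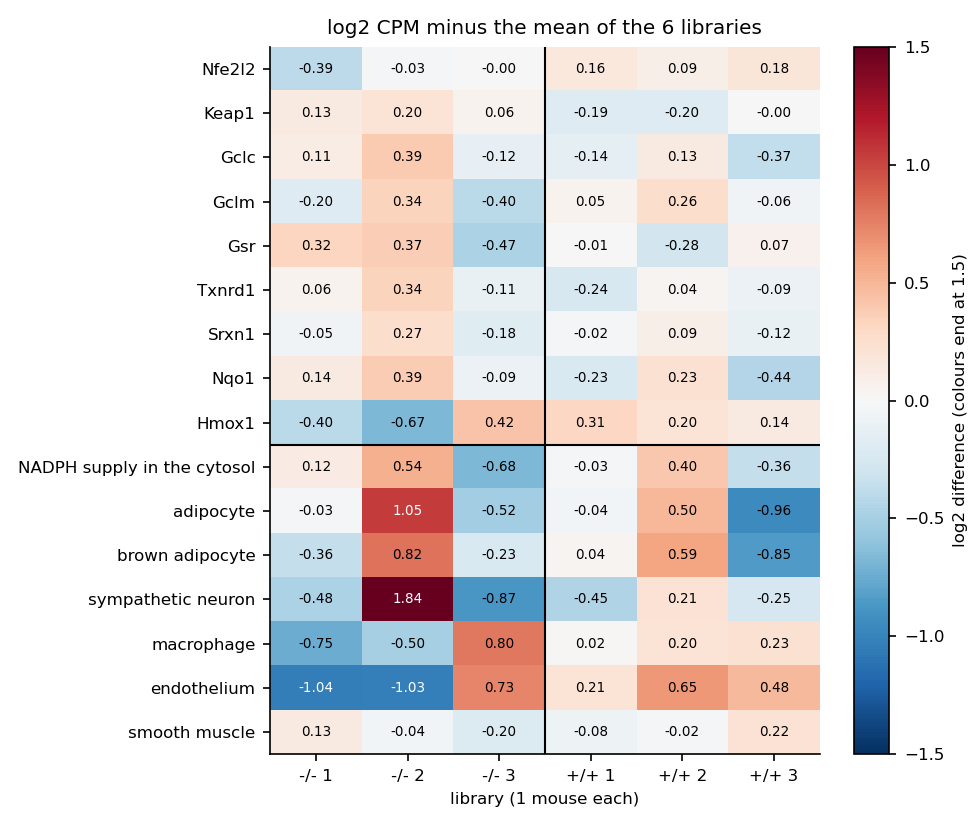
Deviation of each NRF2 gene and of the summed CPM of gene lists (rows) from the mean of the 6 libraries (columns), as log2 differences written in each field and coloured from blue (lower) to red (higher). Targets other than Hmox1 are above the mean in miRNA-26b-/- 2, by 0.27 to 0.39. The NADPH (0.54), adipocyte (1.05), brown adipocyte (0.82) and sympathetic neuron (1.84) lists are further above it there. The macrophage, endothelium and smooth muscle lists are below it in that library.

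The wider NRF2 pathway was read as 9 lists of 98 genes, of which 93 passed the filter on low counts. At an unadjusted p under 0.05, 1 was higher and 3 were lower in miRNA-26b-/- mice, or 4.3% against 6.47% of all genes tested, and none passed after adjustment (lowest adjusted p = 0.736, edgeR quasi-likelihood test). The median log2 fold change was 0.06 beside 0.01 over all genes tested.

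Txn1, the thioredoxin that Txnrd1 reduces, was at 136 ± 19.8 CPM in miRNA-26b-/- mice, against 103 ± 10.9 CPM in controls, a log2 difference of 0.41 (SE 0.17, adjusted p = 0.736 in edgeR). Txnip, which binds and inhibits thioredoxin, was at 513 ± 45.9 against 675 ± 111 CPM, a log2 difference of -0.40 (SE 0.14, adjusted p = 0.736 in edgeR). Slc3a2, the heavy chain that carries xCT and other amino acid transporters to the membrane, was at 60.3 ± 5.55 against 79.4 ± 11.1 CPM, a log2 difference of -0.40 (SE 0.18, adjusted p = 0.758 in edgeR). Abcc3, an efflux pump for conjugates, was low throughout, at 0.117, 0.358 and 1.38 CPM against 5.09, 2.22 and 2.48 CPM, a log2 difference of -2.41 (SE 0.95, adjusted p = 0.736 in edgeR). None of the 4 held an unadjusted p under 0.05 throughout. Among the 15 other settings it was lost in 3 for Txnip, 5 for Txn1, 7 for Abcc3 and 8 for Slc3a2, for all 4 without miRNA-26b-/- 2.

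By list, the 13 genes of NRF2 control had no call, 5 positive and 8 negative values and a median of -0.09. They include the repressor Bach1 at 43.3 ± 9.20 against 38.5 ± 9.15 CPM and the partner Mafg at 49.7 ± 3.52 against 57.4 ± 8.90 CPM, both picked after their values were seen. Sqstm1, which encodes the KEAP1-binding autophagy receptor p62 and had the highest RPKM of the list, was at 367 ± 44.9 against 339 ± 26.4 CPM. The medians were -0.12 for glutathione synthesis and recycling, 0.05 for thioredoxin and peroxiredoxin, 0.12 for glutathione peroxidases and transferases and 0.19 for quinone and carbonyl detoxification. Haem and iron had a median of -0.01, cytosolic NADPH supply 0.02, multidrug efflux 0.11 and superoxide dismutases with catalase -0.03. Apart from the 4 genes above, no list had a gene with an unadjusted p under 0.05.

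For the remaining 6 lists, the SD ranges of the gene with the highest RPKM overlapped between genotypes. The ferritin heavy chain Fth1 was at 2589 ± 372 against 2608 ± 106 CPM, and the extracellular superoxide dismutase Sod3 at 1442 ± 142 against 1435 ± 155 CPM. The glutathione transferase Gstm1 was at 492 ± 110 against 425 ± 49.99 CPM, and the epoxide hydrolase Ephx1 at 136 ± 19.3 against 135 ± 11.2 CPM. The pentose phosphate enzyme Taldo1 was at 136 ± 48.3 against 123 ± 27.9 CPM, and the efflux pump Abcc1 at 144 ± 39.6 against 145 ± 21.4 CPM. NADPH supply, which fuels Gsr, Txnrd1 and Nqo1, varied most by library, with a sum of 941, 1258 and 543 CPM in miRNA-26b-/- mice and 848, 1146 and 676 CPM in controls, highest in mouse 2 of each genotype as for most targets.

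**Figure D5:**
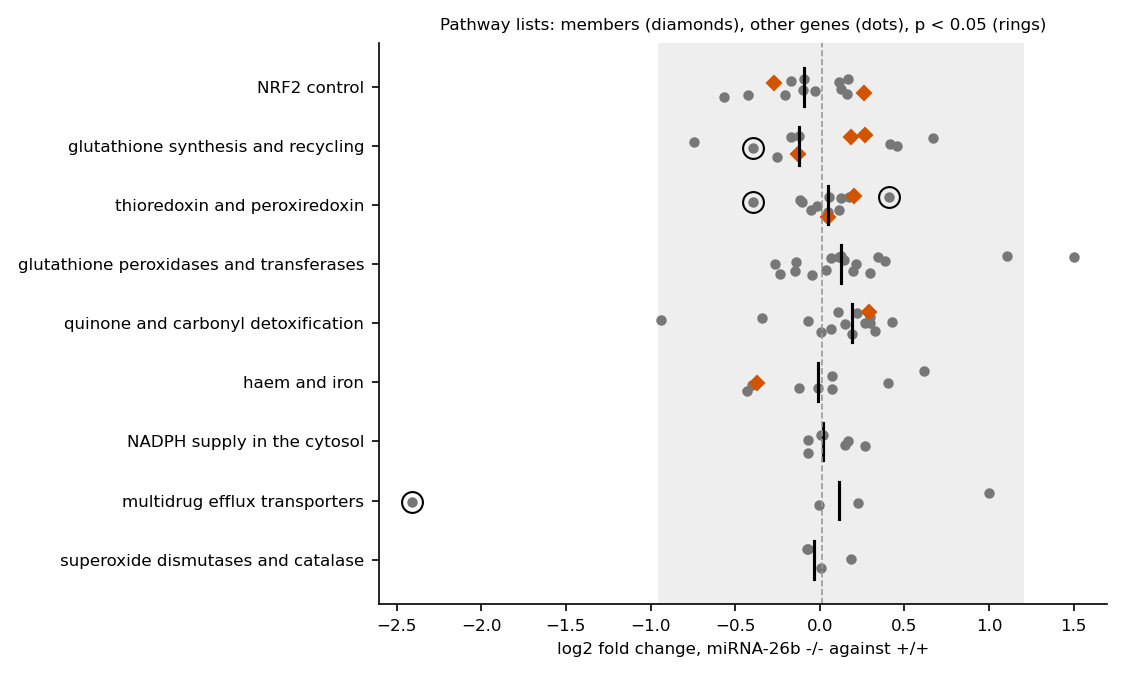
Log2 fold change of miRNA-26b-/- over miRNA-26b+/+ (horizontal axis) for the tested genes of 9 pathway lists (rows), with the 9 tested NRF2 genes as diamonds, other genes as dots, list medians as black bars and genes with an unadjusted p under 0.05 ringed. The grey band spans the 5th to 95th percentile of all genes tested, from -0.95 to 1.198, and the dashed line is their median.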

How the data were processed

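Total RNA of 6 aortas, 3 mice per genotype, was sequenced from TruSeq libraries. The authors deposited raw read counts per gene, from STAR on GRCm38 and featureCounts 1.6.4, unstranded over exons, in which a read over several genes counts for every one. The file header names GENCODE M21, and the methods name a later release. A second deposited table of normalised values, fold changes and p-values was not used.

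Genes whose counts summed to 2 or more, with over 1 CPM in 2 or more libraries, were normalised by TMM and fitted in edgeR 4.0.16 (quasi-likelihood, R 4.3.3, prior count 0.125), and p-values of 16017 genes were adjusted after Benjamini-Hochberg (threshold 0.05). RPKM divides CPM by the deposited exon length. The newer form of this fit was chosen over the default of the installed version after both results had been seen. The default called 802 genes at an unadjusted p under 0.05 in place of 1036, and 0 in place of 1 after adjustment, and called no NRF2 gene. DESeq2 1.42.0 and limma 3.58.1 were alternatives.

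The members and lists were chosen with earlier results of these data known. Named genes are the members, pathway genes with an unadjusted p under 0.05, the gene with the highest RPKM of each list, Mir26b, Ctdsp1 and markers, besides Bach1 and Mafg, picked after their values were seen. Every pair of libraries differed beyond sampling noise. In counts simulated for this comparison over 15045 genes, 81.5% of 200 genes changed by 1 on the log2 scale and 6.67% of unchanged genes had p under 0.05. The changed genes were drawn only from those above a minimum mean CPM. Their change was larger than every fitted NRF2 difference, so 81.5% does not hold for differences as small as those.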

Additional observations from a re-analysis of the deposited data

How the results depend on the processing

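The 15 alternatives were other normalisations, tests and filters, each library left out in turn, and, both added after seeing the data, the default method of edgeR and leaving out miRNA-26b-/- 2 with control 2. The count of NRF2 genes with p under 0.05, adjusted or not, was 0 in all 15. Over all genes the count of 1036 moved to 686 to 1692 when 1 library was left out (1692 without miRNA-26b-/- 3, 686 without control 3) and to 607 without the pair; after adjustment DESeq2 called 57 genes, voom 3 and the fit without miRNA-26b-/- 3 82, none of them NRF2 or pathway genes. Lower outnumbered higher calls with voom (482 against 365), without the pair (317 against 290) and without miRNA-26b-/- 2 (473 against 425), miRNA-26b-/- 3 (904 against 788) or control 1 (431 against 407). The count of 4 pathway genes became 2 to 8 with 1 library left out (2 without miRNA-26b-/- 2 or control 2, 8 without miRNA-26b-/- 3) and 0 without the pair. The 2 called without miRNA-26b-/- 2 were both higher in miRNA-26b-/- mice and were not among the 4 of the main fit. The sign turned for Gclm without miRNA-26b-/- 3 (0.025; leave-one-out range -0.388 to 0.025), for Gsr without the pair (-0.059; leave-one-out range 0.031 to 0.409) and for Srxn1 without miRNA-26b-/- 2 (-0.10), without control 3 (-0.013) and without the pair (-0.045), with a leave-one-out range of -0.10 to 0.14. The other 6 tested NRF2 genes kept their sign in all 15. No paired analysis was possible because the labels give no number that pairs animals. The 9 tested genes had 208 or more reads in each library, and Slc7a11 had too few to pass the filter.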
